A study of Mus musculus with 3 samples.

Results

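Signalling by TGF-beta, BMP and Nodal proteins was followed through 47 genes, which 72 of the 41174 gene probes on the array read. They are 16 ligands, 12 receptors and co-receptors, 8 Smads, 8 antagonists and matrix binding proteins, and 3 target genes. The genes were taken by name: every gene probe whose symbol equalled one of the 47 names, letter case ignored, is a member. Nodal was put at the head of the list because its probe was known to be strongly higher in these arrays, so its values are described here without a test. RNA came from whole hearts of mouse embryos at embryonic day 15.5. On each of 3 two-colour arrays, 2 pooled Lrrc10-/- hearts (Cy5) were hybridised against 2 pooled wild-type hearts (Cy3). The Lrrc10-/- mice carry a germline deletion of Lrrc10, a gene specific to cardiomyocytes, and were backcrossed to C57BL/6. The pools were made from littermates of heterozygous crosses. The labels name no treatment of either group. The wild-type labels also hold an adult age beside the embryonic day, and the embryonic day, given by the other labels, was taken.

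Nodal, the TGF-betas, the activins and the BMPs are secreted proteins of a single family. They bind pairs of receptor kinases, which phosphorylate Smad proteins that then enter the nucleus with Smad4. Nodal uses the receptor Acvr1b with Acvr2a or Acvr2b and needs the co-receptor Tdgf1 (Cripto) or its relative Cfc1. It acts through Smad2 and Smad3 with the DNA-binding partner Foxh1, and it switches on its own inhibitors, Lefty1 and Lefty2. Nodal is known for setting the left-right axis before the heart loops. BMPs act through Smad1, Smad5 and Smad9 and raise the Id genes, while TGF-betas are known for shaping the heart valves.

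All ratios below are log2 of Cy5, the channel labelled Lrrc10-/-, over Cy3, the channel labelled wild type. There was no dye swap, and dye and genotype cannot be told apart. The targeted gene goes against the labels. Lrrc10 had log2 ratios of 3.99, 4.78 and 4.45 on replicates 1, 2 and 3, with a mean of 4.41 and a limma adjusted p of 0.000386. Every direction below would turn round if the channels were exchanged. The share of gene spots well above background was 63.9% to 88.9% in Cy5 and 69.3% to 93.2% in Cy3, lowest on replicate 3 in both, and precision is limited by the number of arrays. Across tested probes, which are not independent, the log2 ratios of replicates 1 and 2 correlated at r = 0.51, and replicate 3 correlated at 0.22 with each of the others. Of the marker genes of heart cells, 10 of 10 for cardiomyocytes, 6 of 6 for endothelium and endocardium, 5 of 5 for epicardium, 6 of 6 for mesenchyme and valve and 4 of 4 for smooth muscle were well above background in both channels on all arrays. Of markers of other tissues and cells, 0 of 3 genes of lung epithelium, 3 of 5 of hepatocytes, 4 of 5 of erythroid cells and 4 of 4 of macrophages were. No median is given for the cardiomyocyte list, most of which was saturated in both channels, or for smooth muscle, where Acta2 was saturated on 2 arrays. The unsaturated smooth muscle markers Tagln, Cnn1 and Myh11 averaged -0.49, -0.12 and -0.041 by their brightest probes, and a dimmer Tagln probe averaged 0.13. Median log2 ratios of the other lists were 0.016 for endothelium and endocardium, 0.031 for epicardium, -0.087 for mesenchyme and valve, -0.31 for erythroid cells and -0.088 for macrophages. Within the macrophage list, which ran from -0.28 to 0.90, Csf1r gave 0.66, 0.53 and 1.51 by its brightest probe (limma adjusted p of 0.10). The dimmer Csf1r probes averaged 0.81 and -0.051. Cd68, C1qa and Emr1 averaged -0.28, -0.19 and 0.0088 by their brightest probes. The 3 hepatocyte markers had a median of -0.58 and split by array: Afp had log2 ratios of 0.82, -5.15 and 0.77. The part of these cell types in the ratios of the signalling genes was not tested. Fewer cells of a type and less RNA per cell cannot be told apart in whole hearts.

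The array reads Nodal and its inhibitors, its co-receptor and its partner Gdf1 with 1 probe each, and their identity rests on these sequences, of which the first 30 of 60 bases are shown. No part of them is capitalised, because no motif was sought.
Nodal (A_52_P633560, chr10:60887790-60887849, mm9, + strand): ttattagattataaacgagccatttggttc
Lefty1 (A_51_P354706, chr1:182868137-182868196, mm9, + strand): ctttcatgcaaatctgaagtgctcattata
Lefty2 (A_51_P407494, chr1:182827977-182828036, mm9, + strand): ttgtcctaacttagtgctctcgtcagacct
Tdgf1 (A_52_P23716, chr9:110843254-110843313, mm9, - strand): gatggaccaggacctcaaagcatccaggac
Gdf1 (A_51_P464300, chr8:72855399-72855458, mm9, + strand): gaccgccccacgcaaaagcagggactgttt
The whole Nodal probe has a GC content of 45.0%. Its longest run of bases in common with the probe of another gene on the array, on either strand, was 14 bases. Lefty1 and Lefty2 are neighbouring genes with closely related proteins, but their 2 probes have at most 7 bases in a row in common. The position of the probes within exons or untranslated regions was not determined here, as no annotation of mm9 was used.

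Nodal, chosen for its rise, was the member with the highest ratio. On replicates 1, 2 and 3 its processed Cy5 signal was 1831, 963 and 1966, and its Cy3 signal was 883, 321 and 435. Every one of these was well above background, and Cy5 was the brighter channel on each array. The log2 ratios after loess were 1.21, 1.63 and 1.66, with a mean of 1.50 ± 0.25 (SD, n = 3), which is 2.83-fold. The scanner software's own ratios were 2.07-, 3.0- and 4.52-fold. Among the 395 probes of the whole array that were called higher (1.39% of the 28328 tested), 36 had a larger mean than Nodal, and the median of those called was 1.16. Around the Nodal probe on chromosome 10, 33 tested probes lay within 1 Mb. Their median log2 ratio was -0.091 (range of -0.49 to 0.49), and 0 of them were called higher, against 1.39% of all tested probes. Nodal was chosen for its high ratio, so neither its rank nor its distance from these neighbours is a test. The Lrrc10 probe lies on the same chromosome, 55.6 Mb away.

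**Figure D1:**
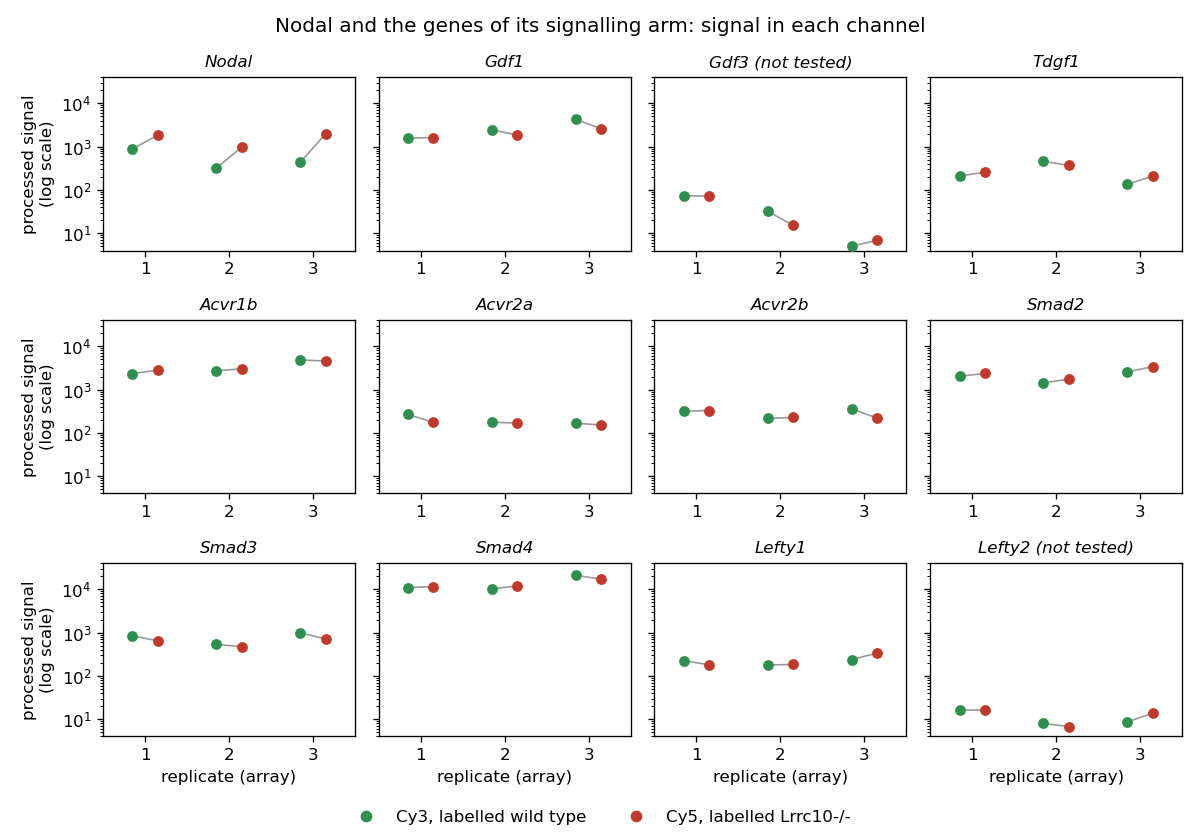
Processed signal (log scale) of Nodal and the 11 other members of its signalling arm in Cy3 (green, labelled wild type) and Cy5 (red, labelled Lrrc10-/-) on each array, joined by a line; a gene is shown by its tested probe of highest mean intensity, or by its only probe. The red point lies above the green one on all 3 arrays for Nodal and for Smad2, and below it on all 3 for Acvr2a and Smad3. The points of Gdf1, Gdf3, Lefty1, Tdgf1, Acvr1b, Acvr2b and Smad4 change order between arrays, and Lefty2 lies at the background.

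No tested gene whose protein works with Nodal had a ratio as high, a comparison that the choice of Nodal for its ratio largely fixed. Gdf1, a relative that pairs with Nodal, had log2 ratios of -0.13, -0.49 and -0.72 and a mean of -0.45 ± 0.30 (SD, n = 3; limma adjusted p of 0.252). After loess all 3 arrays of Gdf1 lay below 0, but the mean did not pass the threshold, and the software's own ratio on replicate 1 was 1.03-fold. Gdf3, which can bind the same receptors, was well above background in Cy5 on 1 array and in Cy3 on 2, and was not tested. The co-receptor Tdgf1 had log2 ratios of 0.26, -0.23 and 0.24 and a mean of 0.090 ± 0.28 (SD, n = 3). Its arrays lay on both sides of 0.

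The receptor kinases of Nodal showed no ratio past the threshold. Acvr1b, the type I receptor, had log2 ratios of 0.55, 0.35 and 0.0058 by its brighter probe (mean of 0.30 ± 0.28, SD, n = 3; limma adjusted p of 0.411) and a mean of 0.030 by its dimmer one. Acvr2a had means of -0.043 and -0.18 by its 2 tested probes, and the brighter one gave -0.19, 0.061 and 0.0018 on the 3 arrays. Acvr2b had log2 ratios of 0.42, 0.29 and -0.20, with a mean of 0.17 ± 0.33 (SD, n = 3), but the software's processed signals gave a mean of -0.19. By the brightest probe of each type II receptor, the arrays thus lay on both sides of 0 after loess. The software's own ratios of the brighter Acvr2a probe were 0.65-, 0.94- and 0.92-fold, below 1 on every array. The dimmer tested Acvr2a probe lay below 0 throughout, at -0.40, -0.069 and -0.056.

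Of the Smads that carry the Nodal signal, Smad2 lay above 0 on every array, and Smad3 lay below 0 on every array by its brighter probe alone. Smad2 gave log2 ratios of 0.58, 0.52 and 0.45, with a mean of 0.51 ± 0.065 (SD, n = 3). It was higher on 3 of 3 arrays, but its limma adjusted p was 0.110, the lowest of all tested members, and the software's processed signals gave a mean of 0.29. Without replicate 3 Smad2 passed the threshold, at 0.55 (limma adjusted p of 0.0297). Smad3 gave -0.42, -0.33 and -0.33 by its brighter probe, with a mean of -0.36 ± 0.056 (SD, n = 3; limma adjusted p of 0.250). Its dimmer probe, with processed signals of 34.2 to 99.7 over both channels, averaged -0.11 ± 0.19 (SD, n = 3). Smad4, the partner of all the signalling Smads, had means of 0.018 and -0.0033 by its 2 probes, and its arrays fell on both sides of 0.

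Of the inhibitors that Nodal itself induces, Lefty1 alone could be measured. It was well above background in both channels on all arrays, with processed signals of 181, 184 and 335 in Cy5 and 225, 179 and 238 in Cy3. Its log2 ratios were -0.27, -0.0058 and 0.28, with a mean of 0.0018 ± 0.28 (SD, n = 3; limma 95% interval from -0.33 to 0.33). Lefty2 was not well above background in either channel on any array, with processed signals of at most 16.4, so no ratio is given. Over the 9 tested genes of the Nodal arm other than Nodal, the median log2 ratio was 0.018. Of these, 6 had a mean above 0 and 3 below, 0 probes were called by limma after adjustment, and 1 probe was higher and 2 were lower at an unadjusted p under 0.05.

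The rest of the family gave no call either. Without Nodal, 62 probes of 41 genes were tested. Testing required a signal well above background throughout the 3 arrays in at least 1 of the channels. Of the 62 probes, 8 met this in 1 channel only, 6 of them through Cy3 with a mean below 0 and the others through Cy5 with a mean above 0. By limma with Benjamini-Hochberg adjustment over all 28328 tested probes and a threshold of 0.05, 0 of the 62 were called higher and 0 lower, against 1.39% and 0.00353% of all tested probes. At an unadjusted p under 0.05, 6 member probes were higher and 8 lower, and over all tested probes 9.07% were higher and 4.26% lower. With both channels required to be above background, 5 of 54 member probes were higher and 8 lower, beside 9.45% and 4.37% of all probes. With median centring in place of loess the members gave 5 and 9, and all tested probes split at 1927 higher and 1939 lower. The methods' t-test called 3 members higher and 7 lower at its unadjusted threshold, beside 5.4% and 3.89% of all tested probes, and 0 in either direction after adjustment. Without replicate 3, Smad2 and 1 probe of Bmpr1a were called higher and Smad6 lower by limma after adjustment, among 60 member probes, while 5.47% of all probes were called higher and 0.882% lower. The limma 95% intervals of all 41 genes, each by its brightest tested probe, lay between -1 and 1 on the log2 scale. A dimmer Ltbp1 probe, with values on 2 arrays, had an interval from 0.34 to 1.09. The median half-width of the member probes' intervals was 0.30. The median log2 ratio of the 41 genes was -0.051, with medians of -0.13, -0.025 and -0.086 on the 3 arrays, beside 0.013 over all tested probes, and -0.049 over the 39 genes left when both channels had to be above background. The ratio was above 0 for 16 genes and below 0 for 25, beside 52.6% of all tested probes above 0. It was above 0 on all 3 arrays for 6 genes and below 0 on all 3 for 15, and over all tested probes these shares were 19.1% and 17.4%. The 25 genes and the 15 both include Nog and Fst, which were tested through Cy3 alone.

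**Figure D2:**
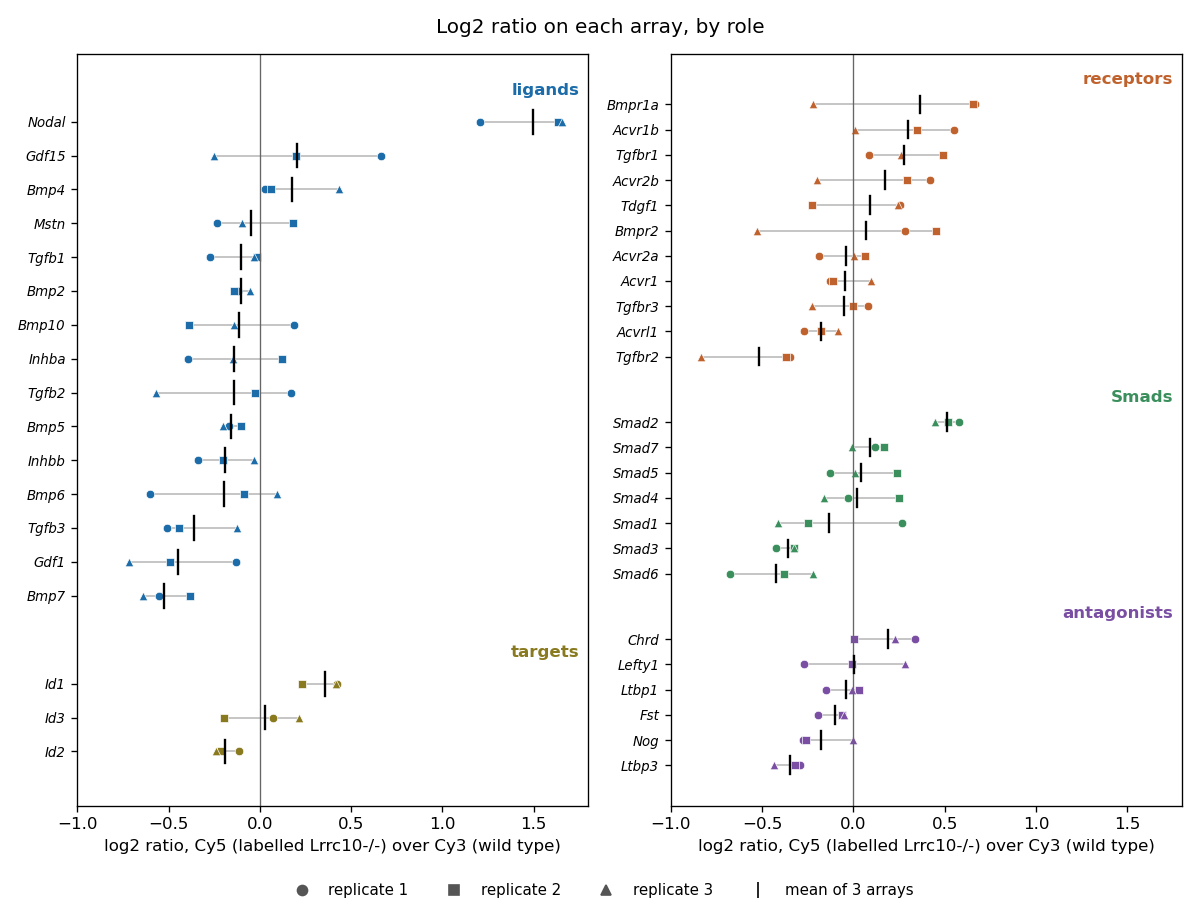
Log2 ratio of Cy5 over Cy3 for Nodal and the 41 tested member genes, grouped by role. Each tested gene is shown by its tested probe of highest mean intensity. Symbols are the 3 arrays and the black bar is their mean. Nodal, chosen for its high ratio, lies at 1.21 to 1.66. Of the 14 other ligands, 12 have a mean below 0, and of all tested probes 52.6% have a mean above 0.

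Of the ligands other than Nodal, 14 were tested, of which 2 had a mean above 0 and 12 below. Over all tested probes, 52.6% had a mean above 0. The median log2 ratio of these ligands was -0.14, and the medians were -0.20, -0.093 and -0.14 on the 3 arrays. The lowest was Bmp7, a BMP of the heart muscle and cushions, with log2 ratios of -0.55, -0.38 and -0.64 and a mean of -0.53 ± 0.13 (SD, n = 3; limma adjusted p of 0.117). A further Bmp7 probe, spotted 10 times, gave -0.20, -0.19 and -0.73 (mean of -0.37 ± 0.31, SD, n = 3). Both probes were lower in Cy5 on all arrays. Tgfb3, known from the cushions of the outflow tract, had log2 ratios of -0.51, -0.44 and -0.13, with a mean of -0.36 ± 0.20 (SD, n = 3; limma adjusted p of 0.296). Bmp10, which drives growth of the trabeculae, averaged -0.12 ± 0.29 (SD, n = 3), and Bmp2, which induces the cushions, -0.11 ± 0.045 (SD, n = 3). Tgfb1 and Tgfb2 averaged -0.11 and -0.14, and the activin subunits Inhba and Inhbb -0.14 and -0.19. The highest ligand after Nodal was Gdf15, a stress-induced factor, at 0.66, 0.20 and -0.25 with a mean of 0.20 ± 0.46 (SD, n = 3), so its arrays disagreed in sign. Bmp4 averaged 0.17 ± 0.23 (SD, n = 3), Bmp5 -0.16, Bmp6 -0.20 and Mstn, a limiter of muscle growth, -0.049. The further probes of Inhbb and Bmp6 (2 arrays for Bmp6), both tested through Cy3 alone, averaged -0.039 and -0.23. The count of 12 ligands below 0 became 11 when any 1 array was left out.

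The 11 tested receptor genes had a median log2 ratio of 0.070, and 6 lay above 0 and 5 below. This direction was not stable: the median was -0.079 with the software's processed signals, with 4 above and 7 below, -0.018 with scaling between arrays and -0.016 without replicate 2. The lowest was Tgfbr2, the type II receptor for TGF-beta, with log2 ratios of -0.35, -0.37 and -0.83 and a mean of -0.52 ± 0.27 (SD, n = 3; limma adjusted p of 0.181). Replicate 3 was the lowest of the 3, and the 2 further Tgfbr2 probes were too dim to be tested. The highest was Bmpr1a, a type I BMP receptor needed in heart muscle, with 0.67, 0.66 and -0.22 and a mean of 0.37 ± 0.51 (SD, n = 3; limma adjusted p of 0.461). Its further probe gave -0.37, -0.17 and -0.25, so the probes lay on opposite sides of 0 on replicates 1 and 2. Without replicate 3 the brighter probe averaged 0.66 (limma adjusted p of 0.00887). Tgfbr1, the type I receptor for TGF-beta, averaged 0.28 and -0.14 by its 2 probes, the dimmer of which was tested through Cy3 alone. Acvr1, Acvrl1 and Tgfbr3 averaged -0.048, -0.18 and -0.051, and Bmpr1b had no tested probe.

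Of the Smads, 7 were tested, with a median log2 ratio of 0.018, and 4 lay above 0 and 3 below. The median turned to -0.055 with median centring, -0.024 with scaling, -0.010 with the processed signals and -0.074 without replicate 2. The lowest was Smad6, an inhibitory Smad that BMP signalling induces, at -0.67, -0.38 and -0.22 with a mean of -0.43 ± 0.23 (SD, n = 3; limma adjusted p of 0.238). It was lower on all 3 arrays, and without replicate 3 its mean was -0.53 (limma adjusted p of 0.0412). The other inhibitory Smad, Smad7, averaged 0.092 ± 0.091 (SD, n = 3). The Smads of the BMP branch, Smad1 and Smad5, averaged -0.13 and 0.039 by their brightest probes. The further Smad1 probe averaged 0.16, and those of Smad5 0.17 and -0.055. Both probes of Smad9 were too dim to be tested.

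Among the antagonists and binding proteins, 6 genes were tested, with a median log2 ratio of -0.073. Nog and Fst entered through Cy3 alone, and with both channels required the median of the 4 other genes was -0.021. Chrd, a secreted BMP antagonist, was the highest, at 0.33, 0.0015 and 0.23 with a mean of 0.19 ± 0.17 (SD, n = 3; limma adjusted p of 0.560). Ltbp3, which holds latent TGF-beta in the matrix, was the lowest by its brighter probe, at -0.29, -0.32 and -0.44 with a mean of -0.35 ± 0.078 (SD, n = 3; limma adjusted p of 0.259). The BMP antagonist Nog averaged -0.18 and Fst, which binds activin, -0.10. Grem1, a further BMP antagonist, was not well above background in either channel on any array. The targets Id1, Id2 and Id3, which BMP Smads switch on, had means of 0.36, -0.19 and 0.030 by their brightest probes. Id1 was the highest, at 0.42, 0.23 and 0.42 (SD of 0.11, n = 3; limma adjusted p of 0.259), and Id2 the lowest, at -0.11, -0.21 and -0.24 (SD of 0.067, n = 3; limma adjusted p of 0.526). The further Id2 probes averaged -0.16 and 0.17. The means of the 3 targets thus did not share a sign, the arrays of Id3 lay on both sides of 0, and no ratio passed the threshold.

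**Figure D3:**
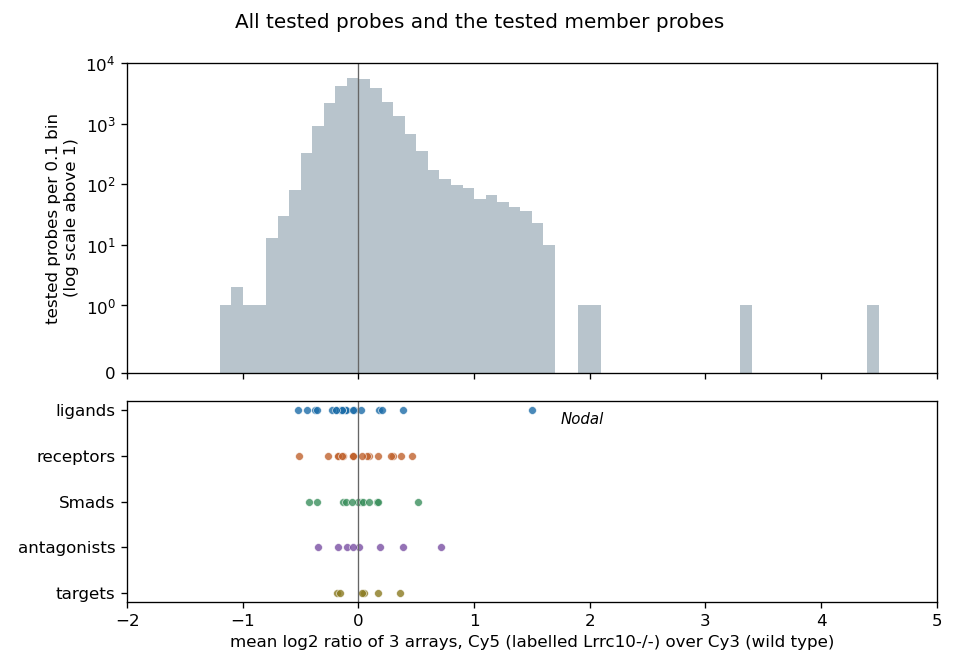
Upper panel, the number of tested probes of the whole array in bins of 0.1 of the mean log2 ratio (log scale above 1). Lower panel, the mean log2 ratio of Nodal and of each tested member probe by role. The members other than Nodal lie between -0.53 and 0.71, and Nodal lies at 1.50.

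Several probes of the same gene often gave different ratios. Of the 17 members with 2 or more tested probes, 10 had means on both sides of 0 and 7 had all means on the same side. For probes tested through 1 channel only, the filter favours the sign of that channel. The Tgfbr1 probe at -0.14, through Cy3, and the Bmp5 probe at 0.38, through Cy5, are among these. The widest gaps were those of Ltbp1 and Ltbp3, both of which have a probe far upstream of the other. The first 30 of 60 bases of these probes show that they read different stretches of each transcript, and the probes of a pair have at most 4 bases in a row in common for Ltbp1 and 6 for Ltbp3.
Ltbp1 (A_51_P281716, chr17:75790058-75790191, mm9, + strand): ctgacaggtgcaacagaccaaatggacatt
Ltbp1 (A_52_P189946, chr17:75624653-75624712, mm9, + strand): ggggagtcacgtcatccattccacacatac
Ltbp3 (A_51_P233101, chr19:5758289-5758346, mm9, + strand): ctcccaagggtgattcctagaaacttcgac
Ltbp3 (A_52_P652936, chr19:5751763-5751822, mm9, + strand): agtgtcgcgaccctagcacctgccctgatg
The downstream Ltbp1 probe had log2 ratios of -0.15, 0.028 and -0.010 (mean of -0.043 ± 0.093, SD, n = 3). The upstream one gave 0.60 on replicate 1 and 0.83 on replicate 3, with a mean of 0.71 ± 0.17 (SD, n = 2; limma adjusted p of 0.125). Its spot on replicate 2 carried a non-uniformity flag and was dropped. For Ltbp3 the downstream probe lay below 0 on every array, as given above, and the upstream one above 0 on every array, at 0.28, 0.64 and 0.23 with a mean of 0.38 ± 0.22 (SD, n = 3; limma adjusted p of 0.276). None of the 4 passed the threshold.

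Bmpr2, the type II BMP receptor, showed the same spread with 3 probes. The brightest gave 0.28, 0.45 and -0.53, a dimmer one 0.25, 0.49 and -1.15, and the farthest upstream 0.41, 0.52 and 0.45 (mean of 0.46 ± 0.053, SD, n = 3; limma adjusted p of 0.149). On replicates 1 and 2 the 3 probes were all above 0, and they parted on replicate 3. Bmp5 had means of -0.16, 0.021 and 0.38 by its 3 probes. The probe with the highest mean is placed by the file on the strand opposite to the other 2, and was tested through Cy5 alone. The 2 Id1 probes start 10 bases apart and have 50 bases in common, and the shared bases among the first 30 are in capitals.
Id1 (A_51_P385786, chr2:152563036-152563095, mm9, + strand): gaggaaatatTTTGTATTGTATATTACAAT
Id1 (A_52_P533809, chr2:152563046-152563105, mm9, + strand): TTTGTATTGTATATTACAATGATCACTGGC
The first gave 0.42, 0.23 and 0.42 and the other 0.026, -0.12 and 0.24, with means of 0.36 ± 0.11 and 0.051 ± 0.18 (SD, n = 3). The first was thus the higher of the pair on all 3 arrays, a gap of 0.31 between means of nearly the same sequence.

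**Figure D4:**
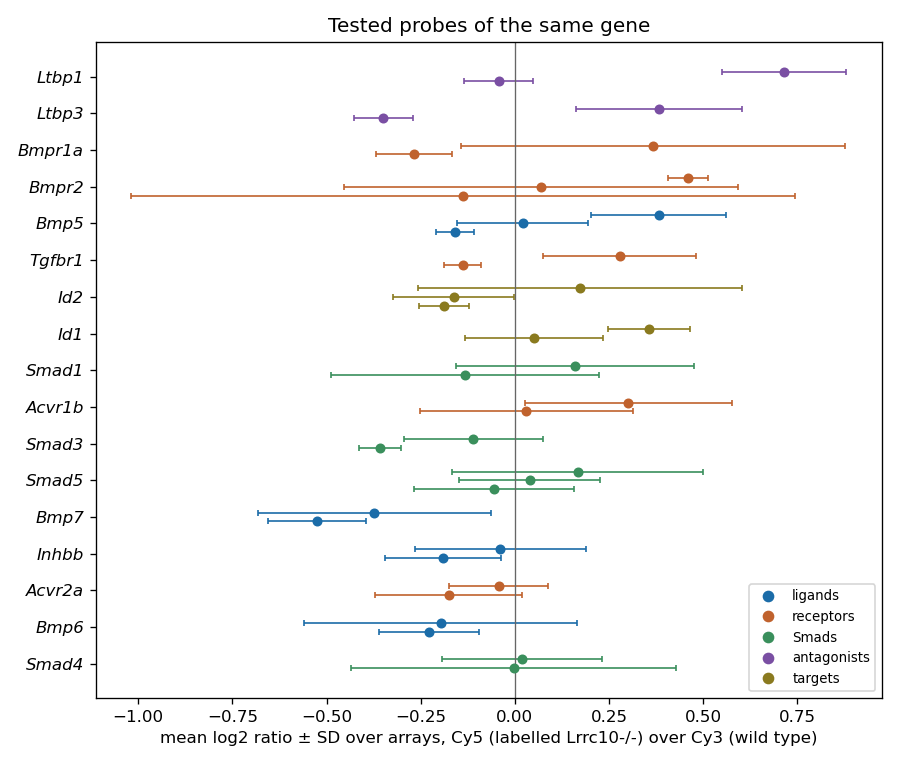
Mean log2 ratio of each tested probe of the 17 members with 2 or more tested probes, ordered by the gap between their probes; bars are the SD over arrays (n = 3, or n = 2 for 1 probe each of Ltbp1 and Bmp6). The probes of Ltbp1, Ltbp3 and Bmpr1a lie on opposite sides of 0, and those of Smad4 nearly coincide.

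The spread within an array was measured by 4 ligand probes that are spotted 10 times each. The SD of the log2 ratio between spots of 1 array ran from 0.051 to 0.13 for Bmp2, from 0.072 to 0.22 for Bmp4, from 0.067 to 0.32 for this Bmp7 probe and from 0.052 to 0.28 for Tgfb1. Replicate 3 had the smallest spread between spots for all 4. The SD between the 3 arrays was 0.045, 0.23, 0.31 and 0.14 for the same probes. Nodal is spotted once, so its spread within an array is unknown.

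Other genes of the pathway were taken from a list of 68 symbols, in which Ctgf also stands as Ccn2. Of the symbols 67 are on the array, and 57 genes were tested by 86 probes. After adjustment by limma 1 probe was called higher, that of Bmp3, and 0 were called lower, while 8 were higher and 6 lower at an unadjusted p under 0.05. Over all tested probes these shares were 1.39% and 0.00353% after adjustment and 9.07% and 4.26% before it. The median log2 ratio of the 57 genes was 0.049, with 31 above 0 and 26 below. Bmp3, a BMP known to oppose other BMPs in bone, had processed signals of 1574, 3042 and 15335 in Cy5 and 878, 806 and 6960 in Cy3. Cy5 was the brighter channel on each array. The log2 ratios were 0.67, 1.79 and 1.12, with a mean of 1.19 ± 0.56 (SD, n = 3; limma adjusted p of 0.0420). Its adjusted p ran from 0.000696 to 0.547 over the alternatives, and it was 0.109 without replicate 1 and 0.213 without replicate 2.

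By role, the other ligands and processing enzymes had a median log2 ratio of 0.097, the receptors 0.060, the antagonists and matrix proteins 0.016, the regulators of Smads -0.047 and the targets 0.058. Within these lists stand further partners of Nodal. Foxh1, which brings Smad2 to DNA, gave 0.67, 0.40 and 0.37, with a mean of 0.48 ± 0.16 (SD, n = 3; limma adjusted p of 0.161). It was above 0 on all arrays but not called. Cfc1, the relative of Tdgf1, gave 0.77, -0.24 and 0.92, with a mean of 0.48 ± 0.63 (SD, n = 3). Furin and Pcsk6, which cleave the Nodal precursor, averaged -0.37 and -0.27, and Dand5, an antagonist of Nodal, -0.094. The arrays of Cfc1, Furin and Pcsk6 lay on both sides of 0. Cer1, a further antagonist, and the early targets Eomes, Gsc and Mixl1 had no tested probe. The lowest gene of the list by its brightest tested probe was Eng, a co-receptor for TGF-beta in endothelium, at -0.48, -0.26 and -0.52 with a mean of -0.42 ± 0.14 (SD, n = 3; limma adjusted p of 0.203). Foxh1, Cfc1, Furin, Pcsk6 and Dand5 were named for their known link to Nodal after their values had been seen.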

How the data were processed

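RNA from 3 Lrrc10-/- and 3 wild-type heart pools was measured on 3 two-colour arrays of 60-base probes. The deposited spot intensity values were made by the authors with Agilent Feature Extraction, per the file headers version 9.1.3.1 for replicate 1 and 10.7.3.1 for replicates 2 and 3, whereas the submitters' processing notes name 9.5. The processed intensity of each channel was background-subtracted and dye-normalized by that software, and the deposited log10 ratio is that of processed Cy5 over Cy3. The deposited series table equalled it spot by spot and was used as an alternative. Ratios were computed anew in limma 3.58.1 (R 4.3.3): mean signals were corrected by normexp on the median local background (offset 50), normalized by loess within arrays with control spots at weight 0, and averaged over the spots of a probe, without non-uniform spots. Log2 ratios were tested against 0 with lmFit and eBayes, two-sided, with Benjamini-Hochberg adjustment over all 28328 tested probes. The step was tested on simulated data. Coordinates (mm9) come from the files. The tested probe of highest mean intensity stands for a gene. Of the 72 member probes 9 did not pass the signal filter, which left Gdf3, Bmpr1b, Smad9, Lefty2 and Grem1 without a tested probe. A value on replicate 2 is lacking for 2 probes. The Nodal probe passed the filter and stayed in the fit and the adjustment over all probes, but its test is not given. The rule for named genes takes the Nodal arm, the highest and lowest of each role, probes past the threshold, and members with several probes. The remaining members are given by their means so that each is accounted for. The members and lists were chosen with earlier results of these data known, and base content correction was added after seeing the data. The software's p-value of each spot was not used. Of the other pathway list, 1 result is not reported here.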

Additional observations from a re-analysis of the deposited data

How the results depend on the processing

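Of 17 alternatives, 6 cannot alter the log2 ratio of Nodal, and the other 11 gave 1.41 to 1.64, a description of a gene chosen for that ratio. No value of the results changed sign while past the threshold. Counts of called members were 0 in both directions under all alternatives but 2: the methods' t-test at its unadjusted threshold called 3 probes higher and 7 lower, and leaving out 1 replicate gave 0 to 2 higher and 0 to 1 lower, the calls coming without replicate 3. For the other pathway genes, the 1 probe called higher became 0 with the software's processed signals, the series table, no background correction, median centring, scaling between arrays, no filter on dim probes, the software version as a block, the adjusted t-test and base content correction. It became 2 with array weights and with the unadjusted t-test, and 0 to 5 when 1 replicate was left out. Their count called lower was 5 by the unadjusted t-test and 0 to 2 when 1 replicate was left out. The highest counts again came without replicate 3. The median over the 41 member genes was -0.11 with the processed signals and with the series table, and -0.095 to -0.023 when 1 replicate was left out. Over all probes, calls higher and lower numbered 395 and 1, but 0 and 0 with scaling, the series table, the adjusted t-test or the processed signals, 1 and 0 with no background correction or the version block, 266 and 2 with median centring, 145 and 0 with no filter on dim probes, 502 and 11 with array weights, 1529 and 1103 by the unadjusted t-test, 461 and 3 with an intensity trend, and 315 and 4 with base content correction. Without replicates 1, 2 and 3 they were 2 and 0, 1 and 0, and 1539 and 248. Other causes were not tested. Each array's ratio already pairs its own 2 pools, so the limma test is itself the paired test. Dye is confounded with group in every ratio, the software version differs between replicate 1 and the others, and replicate 3 had the fewest spots above background.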
